A study of Mus musculus with 2 samples.

Results

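The 9 genes described here are B2m, H2-D1, H2-K1, Tap1, Tap2, Tapbp, Cd74, H2-Aa and H2-Ab1, which encode parts of the major histocompatibility complex (MHC) antigen presentation machinery of the mouse. They were found by gene name among the non-control spots of the arrays, and every probe was used, which gave 19 probes and 46 spots of 41174 probes and 43379 spots (27962 gene names) in all. The RNA carried by adipocyte-derived microvesicles (ADMs), small membrane particles that fat cells shed into their medium, was set against the RNA of the donor adipocytes. Both came from 3T3-L1, an established mouse preadipocyte line cultured in high-glucose DMEM with 10% FCS and turned into adipocytes with dexamethasone at 0.25 µM, insulin at 10 µg/ml and 3-isobutyl-1-methylxanthine at 0.5 mM. The vesicles, pelleted from the medium, and the cells were both collected on day 11. Each of the 2 biological replicates was a pair of ADM and cell RNA on 1 array read in both dye colours, with ADM RNA in Cy5 and cell RNA in Cy3 in replicate 1 and the dyes exchanged in replicate 2.

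MHC class I molecules are formed by a heavy chain, such as those encoded by H2-D1 and H2-K1, bound to beta-2 microglobulin, the product of B2m. Nearly all nucleated cells carry them and use them to show peptides from their own cytosol to CD8+ T cells; Tap1 and Tap2 encode the transporter that moves these peptides into the endoplasmic reticulum, and Tapbp encodes tapasin, which bridges the transporter to the class I molecule. MHC class II molecules, of which H2-Aa and H2-Ab1 encode the alpha and beta chains of I-A, are found mainly on dendritic cells, macrophages and B cells. Cd74 encodes the invariant chain, which occupies the class II groove until peptides are loaded.

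Class I and class II genes are known for a shared promoter arrangement, in which an X box and a Y box lie at a nearly fixed distance and are bound by the RFX, CREB and NF-Y factors. RefSeq's promoter table (GRCm38.p6) held 6 of the 9 genes, all except Tap2, Cd74 and H2-Ab1. The pair TGACG followed by ATTGG on the same strand, with 15 to 25 bases between them, stood in 4 of these 6 promoters of 300 bases (250 before to 50 after the start), against 143 of all 32544 promoters of that length, or 0.439%. The limits of the gap were set with these promoters in view. The 4 sequences are shown because the same arrangement precedes genes that were bright on these arrays and a gene that stayed at background. They are the 250 bases before the start, 5′ to 3′ on the gene's strand, at chr2:122147437-122147686 (plus strand) for B2m, chr17:35262844-35263093 (plus) for H2-D1, chr17:34000348-34000597 (minus) for H2-K1 and chr17:34287824-34288073 (minus) for H2-Aa. Capitals mark the pair and, in H2-D1 and H2-K1, the letters TTTCNNTTC. Other forms of the interferon-stimulated response element were not searched for, so a promoter without these capitals may still hold one.
B2m: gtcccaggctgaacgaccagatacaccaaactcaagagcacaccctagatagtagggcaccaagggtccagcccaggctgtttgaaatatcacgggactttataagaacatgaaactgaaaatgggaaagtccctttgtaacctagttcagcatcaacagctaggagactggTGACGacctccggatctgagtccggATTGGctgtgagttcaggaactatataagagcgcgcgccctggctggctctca
H2-D1: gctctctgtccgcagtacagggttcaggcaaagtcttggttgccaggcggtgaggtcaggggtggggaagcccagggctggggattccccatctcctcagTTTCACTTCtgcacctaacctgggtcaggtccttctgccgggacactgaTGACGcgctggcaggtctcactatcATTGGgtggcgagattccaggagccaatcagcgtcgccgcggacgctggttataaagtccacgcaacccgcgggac
H2-K1: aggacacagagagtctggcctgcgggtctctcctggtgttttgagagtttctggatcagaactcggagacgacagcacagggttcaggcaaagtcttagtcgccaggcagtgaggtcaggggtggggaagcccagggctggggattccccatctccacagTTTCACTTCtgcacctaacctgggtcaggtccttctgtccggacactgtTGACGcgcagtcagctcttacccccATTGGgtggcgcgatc
H2-Aa: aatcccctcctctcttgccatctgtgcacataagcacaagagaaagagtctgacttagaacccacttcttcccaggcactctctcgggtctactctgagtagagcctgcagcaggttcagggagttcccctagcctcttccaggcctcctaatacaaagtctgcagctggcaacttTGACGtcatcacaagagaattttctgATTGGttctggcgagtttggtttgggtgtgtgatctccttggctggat
The gap was 20 bases in B2m, H2-D1 and H2-K1 and 21 bases in H2-Aa, and the first base of TGACG lay at -78, -101, -41 and -74 from the start in that order of genes. TTTCNNTTC was found in 2 of the 6 promoters and in 7.57% of all promoters. On either strand, TGACG alone stood in 20.9% and ATTGG alone in 37.4% of all promoters, and none of the capital runs overlap. The promoters of Tap1 and Tapbp did not hold the pair within this window. Among the other listed genes that matched the table, the pair was found in 2 of 19 class I and class I-like genes, H2-Q7 and H2-M3, in 0 of 14 genes of class II and its peptide supply, and in 1 of 15 genes of MHC transcription and interferon gamma signalling, Jak1. These matches describe letters and not bound sites.

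The deposited intensities are given below as the net signal of a probe, the mean spot intensity minus the median local background averaged over all its spots, in scanner units. The ADM-labelled RNA was far brighter than the cell-labelled RNA: the 99th percentile of the net signal of all probes was 44878 and 16957 in ADM RNA of replicates 1 and 2, against 645 and 2261 in cell RNA. Among tested probes the median ratio of net signals, ADM over cell, was 38.8 in replicate 1 and 7.63 in replicate 2. Each RNA was brighter in the replicate in which it carried Cy5, so that dye and replicate cannot be told apart within a single array. Ratios are therefore reported as log2 ADM over cell after loess, which sets each probe against probes of similar brightness on the same array, and beside them after median centring, which removes only the array's median. A probe was tested with limma where it was well above background in ADM RNA on both arrays or in cell RNA on both, and the Benjamini-Hochberg adjusted p runs over all 18117 probes tested, with a threshold of 0.05. With 2 arrays every ± is the SD over n = 2.

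By this measure 12 of the 19 MHC probes were well above background in ADM RNA on both arrays (63.2%, against 45.8% of all probes), and 9 were so in cell RNA on both (47.4%, against 23.8%). All 9 probes seen in cell RNA were also seen in ADM RNA. Both class I heavy chain genes, B2m, Tap1, Tap2, Tapbp and Cd74 were among the 12, whereas no probe of H2-Aa or H2-Ab1 was. Of the 11 probes tested, which cover 7 of the 9 genes, 3 passed the threshold as higher and 2 as lower in ADM RNA. That is 45.5% of the tested MHC probes, beside 16.4% of all tested probes (5.53% higher and 10.9% lower). All 5 were well above background in both RNAs on both arrays. In a fit limited to such probes, 5 of 8 MHC probes passed, beside 2690 of all 7919. In a fit of the brightest probe per gene, 2 of 7 MHC genes passed, beside 2352 of all 12923. The median log2 ratio was 0.44 over the 11 probes and 0.07 over all tested probes. With median centring all 11 passed, 10 higher and 1 lower, beside 60.9% of all tested probes (59.5% higher and 1.46% lower). The median of all tested probes was then 2.04 and that of the 11 probes 4.47, so a positive value on that scale need not be above the other probes. The share of all calls that were higher in ADM RNA was 33.7% after loess, 97.6% with median centring and 69.3% with the scanner's own processed ratio. When spots of outlying local background were kept, none of the 5 MHC calls passed in limma, and 0 of all tested probes did (677 at an unadjusted p under 0.05). A normexp offset of 10 brought H2-D1, Tap1 and the remaining B2m and H2-K1 probes that were tested inside the threshold as well.

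**Figure D1:**
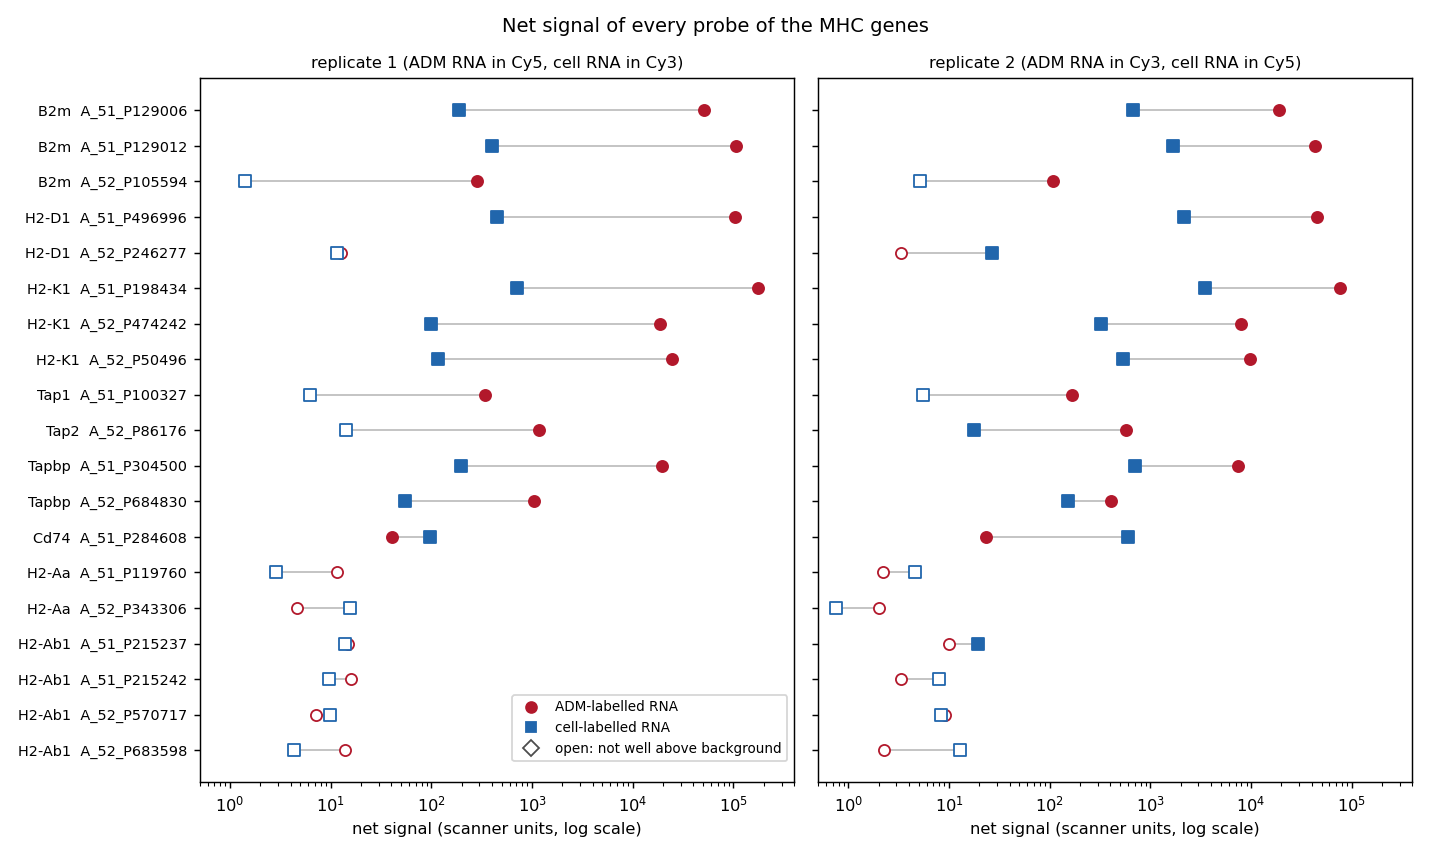
Net signal (scanner units, log scale) of all 19 probes in ADM-labelled RNA (circles) and cell-labelled RNA (squares) on each array; open symbols were not well above background. The class I and peptide loading probes that were well above background in ADM RNA lie further right in ADM RNA. Cd74 is the well-detected probe that lies further right in cell RNA on both arrays.

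Of B2m, H2-D1 and H2-K1, 1 probe of B2m and 2 probes of H2-K1 were higher in ADM RNA relative to probes of similar brightness. No probe of these genes was called lower. For B2m, the probe with 10 spots (A_51_P129006, chr2:121893642-121893698 in mm7, plus strand, annotated to NM_009735) read 51225 and 19125 units in ADM RNA of replicates 1 and 2, against 187 and 670 units in cell RNA. Both ADM values lay above both cell values, but these net signals carry the general excess of ADM RNA given above. After loess its log2 ratio was 1.00 and 1.38 on the 2 arrays, a mean of 1.19 ± 0.27 or 2.28-fold higher in ADM RNA (limma adjusted p = 0.0232). This placed it at percentile 99.0 of the tested probes, and with median centring its value was 5.91 ± 1.83.

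The other B2m probes also had ratios above 0 and were not called. A_51_P129012, which lies next to the first at chr2:121893518-121893577, read 104830 and 43282 units in ADM RNA, against 402 and 1657 units in cell RNA. Its spot in replicate 1 carried the scanner's flag for an outlying local background and was left out, so it was not tested; replicate 2 alone gave a log2 ratio of 1.14. When only spots whose local background exceeded 100 units were left out, a setting chosen after the data were seen, it averaged 0.91 ± 0.32 (limma adjusted p = 0.0326). The third probe, A_52_P105594, is annotated to the cDNA AK086184 at chr2:121889716-121889775. It read 286 and 108 units in ADM RNA and was not well above background in cell RNA, at 1.40 and 5.20 units. Its mean fitted ratio, relative to probes of similar brightness, was 1.36-fold, with log2 ratios of 0.46 and 0.43. It was not called (limma adjusted p = 0.0691). A lower bound for such a probe would set its mean normalized ADM signal against a floor. The floor is the higher of the probe's own cell signal and the lowest signal among probes well above background. Here the probe's own signal was the higher on both arrays, so the bound would equal the mean fitted ratio. No separate lower bound is therefore given.

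H2-K1, which encodes the K heavy chain, was measured by 3 probes on chromosome 17, all on the minus strand. A_51_P198434 (chr17:32074445-32074504, BC080756) read 175411 and 75588 units in ADM RNA, against 706 and 3446 units in cell RNA. Its log2 ratios after loess were 0.01 and 0.74, a mean of 0.38 ± 0.52 (limma adjusted p = 0.283). The other probes lie apart from it within the cDNA AK153419. A_52_P474242 (chr17:32077868-32078115) read 18698 and 7956 units in ADM RNA, against 99.0 and 323 units in cell RNA, and was 2.08-fold higher in ADM RNA (log2 1.06 ± 0.25, limma adjusted p = 0.0261). A_52_P50496 (chr17:32077678-32077737) read 24406 and 9738 units in ADM RNA, against 117 and 530 units in cell RNA, and was 1.84-fold higher (log2 0.88 ± 0.07, limma adjusted p = 0.0246). The ranges of these last probes on the 2 arrays lay above that of A_51_P198434 after loess. With median centring the order turned, at 5.36 and 5.30 for the called probes and 5.78 for A_51_P198434.

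H2-D1, which encodes the D heavy chain, was tested by 1 of its 2 probes. A_51_P496996 spans chr17:33361850-33362082 on the plus strand (NM_010380) and read 102767 and 44963 units in ADM RNA, against 453 and 2149 units in cell RNA. Its log2 ratios were 0.28 and 0.79, a mean of 0.54 ± 0.36 that did not pass the threshold (limma adjusted p = 0.110). When only spots of local background above 100 units were left out, it was 0.63 ± 0.24 and just inside it (limma adjusted p = 0.0498). A_52_P246277, annotated to X03051 at chr17:34358688-34358747 on the minus strand, was not well above background except in cell RNA of replicate 2. It read 12.7 and 3.33 units in ADM RNA, against 11.5 and 26.9 units in cell RNA. The probes of this gene thus disagree in detection as well as in placement. Class I heavy chain genes are a family of close paralogs, and cross-hybridisation between them was not tested, since the files hold no probe sequences.

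Before loess, 6 probes of B2m, H2-D1 and H2-K1 were well above background in both RNAs. Their net signal ratios, ADM over cell, were 189 to 274 in replicate 1 and 18.4 to 28.5 in replicate 2. All 6 stood above the medians of tested probes given above, on both arrays. Those medians cover probes of every brightness, so this comparison does not set the 6 against probes as bright as themselves. The spread between arrays exceeded the spread between spots. Over the 9 kept spots of the B2m probe on each array, the coefficient of variation was 7.06% and 7.51% in ADM RNA and 7.75% and 8.22% in cell RNA, and the log2 ratios of the spots had an SD of 0.06 and 0.05. Over the 5 and 7 kept spots of H2-K1 A_51_P198434 the SD was 0.06 on either array, while the arrays differed by more.

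**Figure D2:**
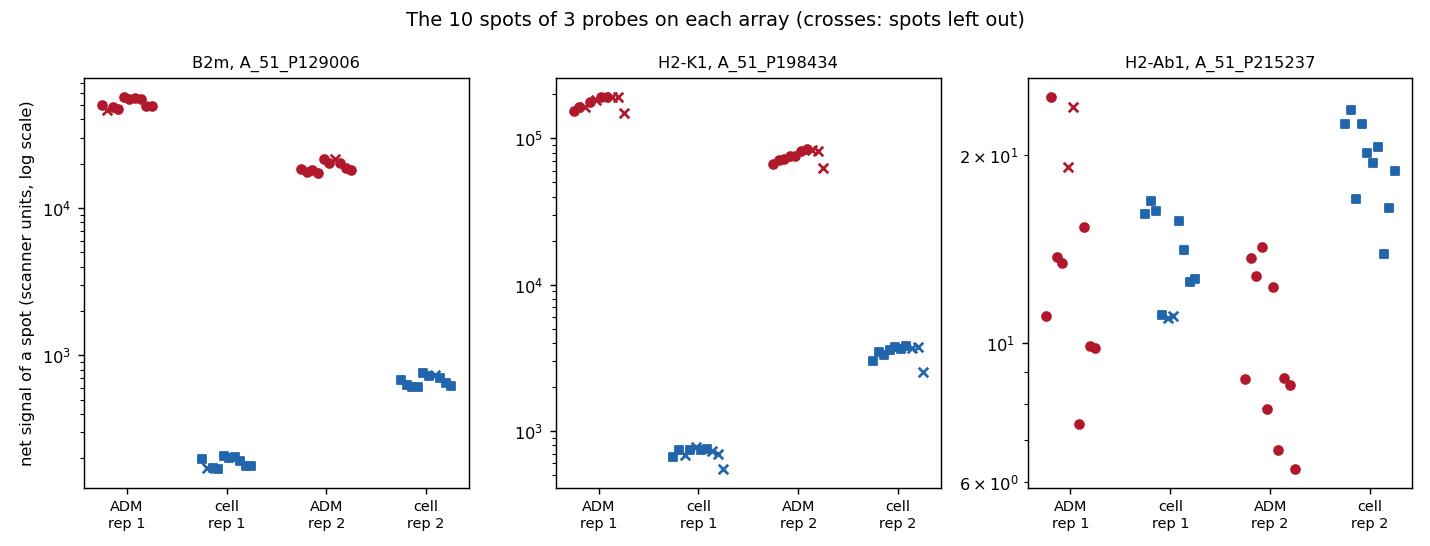
Net signal (scanner units, log scale) of each of the 10 spots of 3 probes, by RNA and replicate; crosses are spots left out for a flag. ADM and cell spots of B2m and H2-K1 do not overlap on this unnormalized scale, where ADM RNA was brighter in general. All H2-Ab1 spots lie near the background.

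The genes of peptide loading gave no higher call, and the 2 probes of Tapbp differed from each other. Tap1 (A_51_P100327, chr17:32273751-32273810, plus strand) read 342 and 166 units in ADM RNA and was not well above background in cell RNA, at 6.18 and 5.52 units. Its mean fitted ratio, relative to probes of similar brightness, was 1.32-fold, with log2 ratios of 0.24 and 0.55. This did not pass the threshold (limma adjusted p = 0.126), and again no separate lower bound is given. Tap2 (A_52_P86176, which spans chr17:32294682-32295269) read 1178 and 570 units in ADM RNA, against 14.1 and 17.7 units in cell RNA, where it was above background in replicate 2 alone. Its log2 ratios of 0.27 and 0.92 gave a mean of 0.59 ± 0.46 (limma adjusted p = 0.123). The ADM and cell net signals of both transporter genes did not overlap, but ADM RNA was brighter in general. Among tested probes the median net ratio was 38.8 in replicate 1 and 7.63 in replicate 2. The share of all probes without overlap was not computed.

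Tapbp A_51_P304500 (chr17:32007107-32007166, plus strand, NM_001025313) read 19666 and 7375 units in ADM RNA, against 196 and 709 units in cell RNA. After loess it was near 0 on both arrays, at -0.02 and 0.04 (mean 0.01 ± 0.04, limma adjusted p = 0.933). A_52_P684830 (chr17:32004181-32004240, NM_009318) read 1049 and 402 units in ADM RNA, against 54.9 and 151 units in cell RNA. Relative to probes of similar brightness it was lower in ADM RNA by 2.19-fold (log2 -0.92 and -1.33, mean -1.13 ± 0.29, limma adjusted p = 0.0260). That direction turns to 1.94 ± 1.27 with median centring, where the median of tested probes was 2.04. RefSeq's gene table (GRCm38.p6) lists both of these transcripts under Tapbp.

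Cd74 was lower in ADM RNA under both ways of normalizing, in contrast to the tested probes of B2m, H2-D1 and H2-K1. Its single probe (A_51_P284608, on chromosome 18) read 41.1 and 23.3 units in ADM RNA, against 97.8 and 595 units in cell RNA, and was well above background in both RNAs on both arrays. Every cell value lay above every ADM value, and the net signal was 2.38 times higher in cell RNA than in ADM RNA in replicate 1 and 25.6 times higher in replicate 2. After loess the log2 ratio was -2.57 in replicate 1 and -5.28 in replicate 2. The mean of -3.93 ± 1.91 is 15.2-fold lower in ADM RNA (limma adjusted p = 0.0401), at percentile 1.13 of tested probes. With median centring it was -2.16 ± 1.44, still below 0. It was -5.70 with a normexp offset of 10, -7.47 with the scanner's processed ratio, and -0.93 and no longer called with spots of outlying local background kept (limma adjusted p = 0.548). The size of the difference is poorly fixed, since the arrays differ by more than the value in replicate 1.

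H2-Aa and H2-Ab1 were not well above background in ADM RNA on any array. H2-Aa had 2 probes, whose net signals ran from 2.02 to 11.5 units in ADM RNA and from 0.76 to 15.4 units in cell RNA, and no spot of either was well above background. H2-Ab1 had 4 probes with net signals of 2.25 to 16.0 units in ADM RNA and 4.34 to 19.5 units in cell RNA. Its 10-spot probe (A_51_P215237, chr17:32345268-32345327, plus strand) read 14.8 and 10.0 units in ADM RNA, against 13.7 and 19.5 units in cell RNA. None of its spots was well above background in ADM RNA, and in cell RNA 0 spots in replicate 1 and 8 of 10 in replicate 2 were. No fold is given for either gene. The 250 bases before the start of H2-Aa, printed above, hold the same pair as those of B2m, H2-D1 and H2-K1, whose transcripts were bright in ADM RNA.

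**Figure D3:**
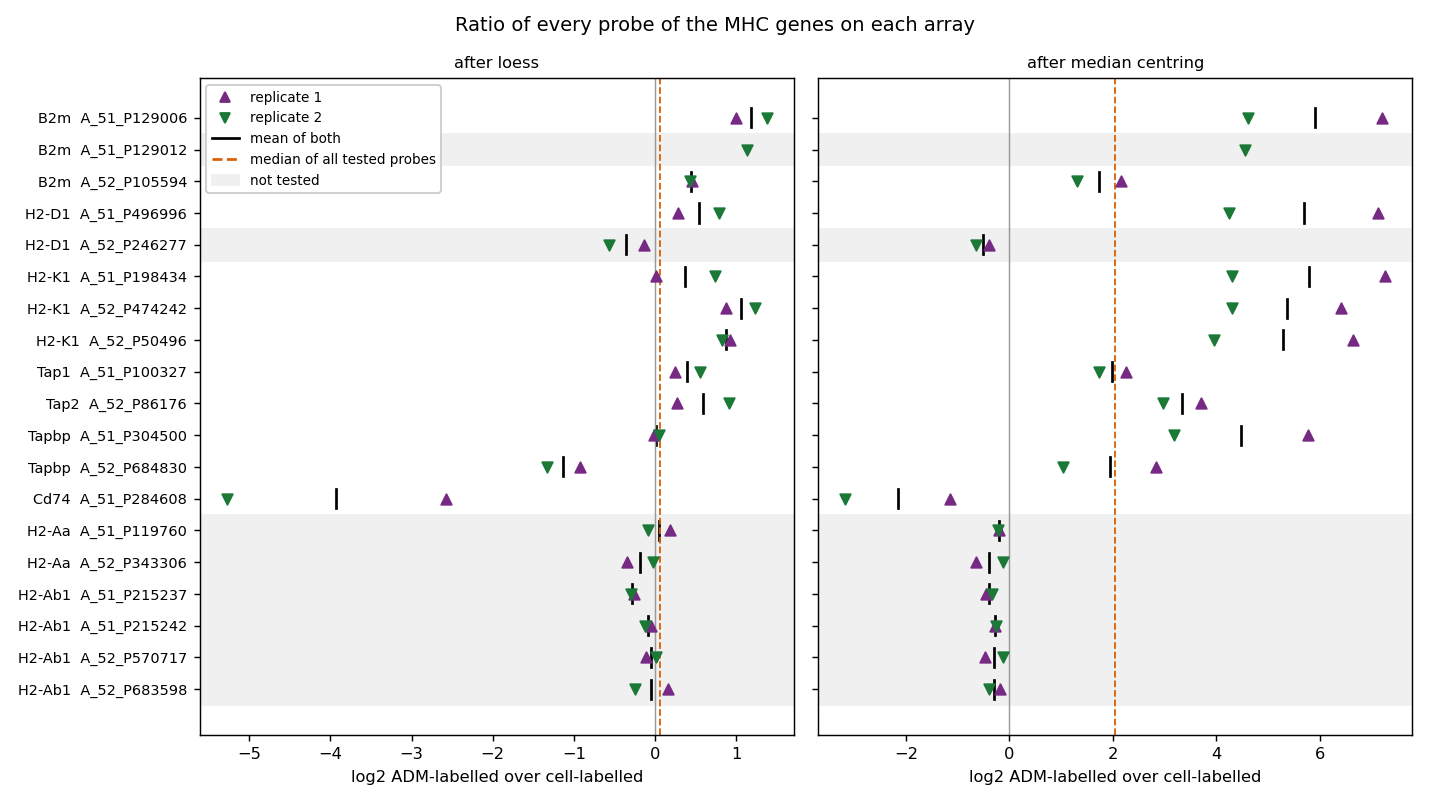
Log2 ratio, ADM-labelled over cell-labelled RNA, of the 19 probes on each array (triangles) with the mean (bar), after loess and after median centring; the dashed line is the median of all tested probes and grey rows were not tested. Cd74 lies below 0 in both panels, and Tapbp A_52_P684830 changes sign between them.

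Ordered by the mean log2 ratio after loess, the 9 tested probes that were above background in cell RNA on at least 1 array ran from B2m A_51_P129006 at 1.19 through H2-K1 A_52_P474242 at 1.06, H2-K1 A_52_P50496 at 0.88, Tap2 at 0.59, H2-D1 at 0.54, H2-K1 A_51_P198434 at 0.38 and Tapbp A_51_P304500 at 0.01 to Tapbp A_52_P684830 at -1.13 and Cd74 at -3.93. Down to Tapbp A_51_P304500, the ranges of neighbours in this order over the 2 arrays overlapped in every case. The range of Tapbp A_52_P684830 lay apart from those of both its neighbours. B2m A_52_P105594 and Tap1, which were not well above background in cell RNA, are left out of the order. These values set each probe against probes of its own brightness and do not rank the genes by abundance.

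**Figure D4:**
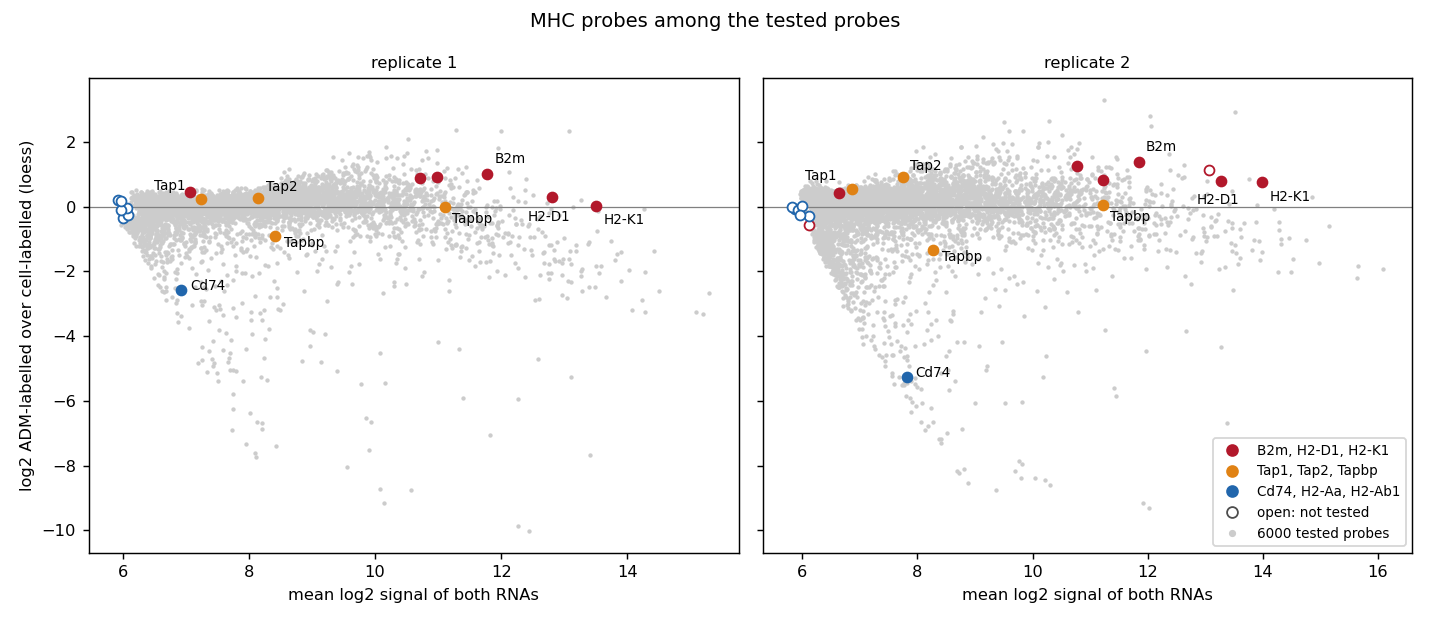
Log2 ratio after loess against mean log2 signal of both RNAs on each array, for the MHC probes and 6000 tested probes drawn at random. Most class I probes lie towards the bright end, at or above 0, and Cd74 lies at the low edge among dim probes.

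The rest of the antigen presentation pathway was read gene by gene, each by its brightest tested probe, over which 19.8% of 12923 genes passed the threshold (6.41% higher and 13.4% lower) with a median log2 ratio of 0.04. Of 15 other class I and class I-like genes tested, 4 were higher, 1 was lower and 10 missed the threshold; the list median was 0.12. The largest higher value was that of Cd1d1, which encodes a lipid-presenting class I-like molecule, at a log2 ratio of 1.88 ± 0.62 (limma adjusted p = 0.0256), from 11143 and 4708 units in ADM RNA, against 34.8 and 68.6 units in cell RNA. H2-Q10, which encodes a secreted class I heavy chain, was higher at a log2 ratio of 1.26 ± 0.13 (limma adjusted p = 0.0154), although its other tested probe gave -0.02. The brightest probe of H2-Q10, at 111009 and 45739 units in ADM RNA, was not tested. H2-D1 read nearly the same, at 102767 and 44963 units. Cross-hybridisation between these paralogs was not tested, so the calls of H2-Q10 and H2-Q1 may not belong to the named gene alone. Fcgrt, which encodes the neonatal Fc receptor chain that pairs with beta-2 microglobulin, was higher at a log2 ratio of 1.20 ± 0.35 (limma adjusted p = 0.0277). H2-M3, which encodes a heavy chain for formylated peptides, was higher at a log2 ratio of 0.71 ± 0.04 (limma adjusted p = 0.0317), with cell RNA above background in replicate 2 alone, while its other probe gave 0.18. H2-Q1 was lower at a log2 ratio of -1.80 ± 0.62 (limma adjusted p = 0.0274), and with median centring it turned to 3.68, above the median of tested probes.

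Genes that supply and load class I peptides had a median log2 ratio of 0.00 over 12 tested, with 1 higher, 3 lower and 8 short of the threshold. Sec61a1, a translocon subunit, was higher at a log2 ratio of 1.05 ± 0.42 (limma adjusted p = 0.0400). That probe read 5619 and 2486 units in ADM RNA, while the gene's brightest probe, at 43501 and 17535 units, was not tested. Calr, which encodes the chaperone calreticulin of the loading complex, was lower at a log2 ratio of -2.63 ± 0.34 (limma adjusted p = 0.00741) by one probe, while the other tested probe gave 0.44. Psme3, a proteasome activator subunit, was lower at a log2 ratio of -1.49 ± 0.13 (limma adjusted p = 0.0120), and Psmb10, an immunoproteasome subunit, at a log2 ratio of -0.75 ± 0.22 (limma adjusted p = 0.0415). With median centring these 3 turned to 2.40, 2.41 and 3.90, all above the median of tested probes.

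Among other class II genes and the proteases that supply them, 1 of 7 tested genes was higher and 6 were not called (median 0.23). The gene that passed was Lgmn, which encodes the lysosomal protease legumain, at a log2 ratio of 1.09 ± 0.21 (limma adjusted p = 0.0230), again with cell RNA above background in replicate 2 alone. H2-DMa and H2-DMb1, which encode the chaperone that exchanges class II peptides, were well above background in ADM RNA on both arrays and in cell RNA in replicate 2 alone. H2-DMa read 627 and 234 units in ADM RNA, against 5.78 and 25.4 units in cell RNA, and H2-DMb1 read 1452 and 509 units in ADM RNA, against 17.9 and 37.8 units in cell RNA. Their log2 ratios of 0.23 ± 0.21 and 0.30 ± 0.08 did not pass the threshold (limma adjusted p = 0.283 and 0.153). H2-Ea, H2-Eb1, H2-Oa, H2-Ob and Ctss were not well above background in either RNA on both arrays.

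Of 15 genes of MHC transcription and interferon gamma signalling tested, 1 was higher and 1 lower, the other 13 were not called, and the median was -0.01. Ifngr1, the ligand-binding chain of the interferon gamma receptor, was higher at a log2 ratio of 2.37 ± 0.41 (limma adjusted p = 0.0114), from 23659 and 9097 units in ADM RNA, against 39.2 and 116 units in cell RNA. Nfya, a subunit of the Y box factor NF-Y, was lower at a log2 ratio of -7.88 ± 0.25 (limma adjusted p = 0.000552) by its brighter probe, and -3.89 with median centring. That probe read 418 and 129 units in ADM RNA, against 1998 and 5923 units in cell RNA, whereas its other probe gave 0.12. Ciita, the class II transactivator, Irf8 and Ifng were not well above background in either RNA on both arrays.

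**Figure D5:**
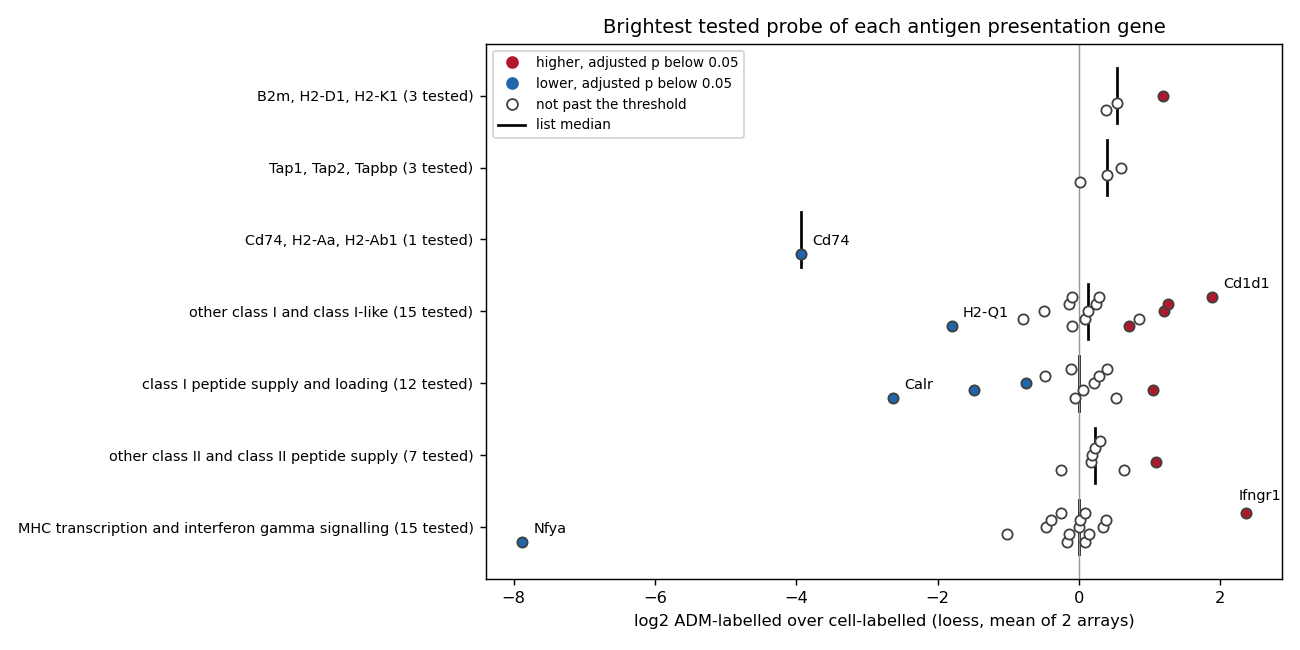
Log2 ratio after loess, ADM-labelled over cell-labelled RNA (mean of 2 arrays), of the brightest tested probe of each gene, by list; filled points passed the threshold and the bar is the list median. Most genes lie near 0, and Cd74, Calr and Nfya lie far to the left.

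In the order of the RefSeq table (GRCm38.p6) along chromosome 17, H2-DMb1, Psmb9, Tap1, Psmb8 and Tap2 were each tested and none passed the threshold. The next genes in that order, H2-Ob, H2-Ab1, H2-Aa and H2-Eb1, had probes on the array that did not meet the detection rule for the test.

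Since class II transcripts are usual in immune cells, marker genes of other cell types were read in the same way. Of 14 macrophage and dendritic cell markers on the array, 4 were well above background in ADM RNA on both arrays and 3 in cell RNA on both. The 4 were Cd68, Cd14, Lyz2 and Fcer1g, while Ptprc, Adgre1, Itgam, Itgax, Csf1r, Aif1, Tyrobp, Laptm5, Fcgr1 and Mrc1 were not. Their net signals summed to 4865 and 1948 units in ADM RNA, against 198 and 317 units in cell RNA. Lyz2 alone gave 4196 and 1658 of these units in ADM RNA, against 68.6 and 174 in cell RNA. Its brighter probe had a log2 ratio of -0.04 after loess and its other tested probe one of -3.30. Of 6 endothelial markers 0 were seen in either RNA on both arrays, with sums of 87.7 and 30.6 units in ADM RNA, against 42.5 and 45.8 units in cell RNA. The part of these cell types in the Cd74 result was not tested. Of 10 adipocyte markers, 10 were well above background in ADM RNA and 9 in cell RNA on both arrays. Of 7 of these tested by limma, 1 was higher and 3 were lower, with a median log2 ratio of -0.28. Adipoq, Cfd and Cidec were not tested. The sign of this median depended on the setting. It was 0.55 with a normexp offset of 10, 0.98 with the scanner's processed ratio and 4.64 with median centring. The medians of all tested probes were then 0.11, 0.69 and 2.04. Of 10 preadipocyte and fibroblast markers, 10 were well above background in ADM RNA and 7 in cell RNA on both arrays. Of 9 of these tested by limma, 4 were higher and 0 lower, with a median log2 ratio of 0.35. Under the same 3 settings in that order this median was 0.58, 1.32 and 5.02. Over all genes read by their brightest tested probe, 6.41% were higher and 13.4% lower.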

How the data were processed

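RNA of ADMs and of donor adipocytes was measured on 2 Agilent 2-colour arrays, 1 per biological replicate; with 2 arrays the precision is limited by their number. The labels do not say whether the replicates came from separate cultures, so p-values measure the spread between these samples, which may be technical. Mean spot intensity and median local background intensity were deposited unnormalized, as extracted by Feature Extraction 10.5.1.1 per the file headers. The log10 ratio of Cy5 over Cy3, per the file headers, was background-subtracted and dye-normalized by the same program; it served as an alternative, and the log10 ratio of the deposited series table equalled it on the array of replicate 1 and its negative on that of replicate 2, for all 45018 spots. The flags for spots well above background and outliers are the scanner's, and probe coordinates and gene names are those of the files (mm7).

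Spots with an outlier flag for the spot or its local background were left out (2322 and 1711 gene spots), so 3198 probes lacked a value on at least 1 array. Background was corrected by normexp (offset 50), ratios were normalized by loess with control spots at weight 0, the spots of a probe were averaged, and replicate 2 was turned to ADM over cell. Detection required the flag on 50% or more of a probe's spots. The mean ratio was tested against 0 with limma 3.58.1 in R 4.3.3 (1 residual and 2.91 prior degrees of freedom). The offset pulls ratios near background towards 0. With median centring limma gave all probes 1 shared variance, so its p-values there are not comparable. Members are named with every probe; of each list, the genes past the threshold by their brightest tested probe are named, at most 4 in each direction, and related class I and class II genes with any result. The members and lists were chosen with earlier results of these data known. A further marker list is not reported here.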

Additional observations from a re-analysis of the deposited data

How the results depend on the processing

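Probes called by limma numbered 2972 of all tested, and 5 of the 11 MHC probes. The count over all probes was 4930 with a normexp offset of 10, 8372 with the scanner's processed log ratio, 11038 with median centring and 4676 with scale normalization between arrays; the MHC counts were 9, 10 and 11 under the offset, processed ratio and median centring. The share of calls that were higher in ADM RNA was 33.7% in the reported fit, 69.3% with the processed ratio and 97.6% with median centring. Tapbp A_52_P684830 was reversed at 1.94 with median centring, which keeps the trend of ratio with brightness. With spots of outlying local background kept, limma called 0 probes (677 at an unadjusted p under 0.05) and 0 MHC probes; the cause was not tested. Spots of local background above 100 units numbered 13 in replicate 1 and 8 in replicate 2. When only these were left out for their background, chosen after seeing the data, 3845 probes and 7 MHC probes passed. Reading 1 probe per gene gave 2 MHC calls by the brightest and 3 by the median of the probes. No filter, a filter on both RNAs, and trended or robust eBayes gave 5 MHC calls each. Well-detected MHC probes numbered 12 to 12 in ADM RNA and 9 to 12 in cell RNA when 1 replicate was left out. Calls without a replicate were not run, since 1 array leaves no residual degree of freedom. The reported fit is itself paired, since each array holds both RNAs of 1 replicate, and no replicate block could be added to it. Signal over background limits Cd74, Tap1, Tap2, H2-Aa and H2-Ab1, whose cell or ADM signals were low.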
